A study of Mus musculus with 12 samples.

Results

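Wild-type mouse embryonic fibroblasts kept for 18 h without glucose were compared with the same kind of cells in rich medium, across all genes with enough reads to test. The comparison uses 4 of the 12 samples of the series: 2 wild-type libraries from rich medium and 2 from glucose-free medium, chosen by their titles. The other RNA libraries come from Carm1 knockout fibroblasts under both conditions, and 4 chromatin immunoprecipitation and input samples are not analysed here. The study asked what the arginine methyltransferase CARM1, a coactivator of transcription, contributes to gene expression in starved cells. All cells were primary fibroblasts of C57BL/6 embryos at passages 3 to 5. The rich group was collected at 0 h in DMEM with 10% fetal bovine serum. The starved group was rinsed with PBS and held in DMEM lacking glucose, with 10% dialyzed serum. Dialysis also removes small molecules other than glucose, and no rich-medium library was collected at 18 h. Lack of glucose, dialysed serum, the rinse and 18 h of further culture therefore cannot be told apart. Nothing in the labels says that replicates were separate cultures or litters, so p-values reflect only how these libraries varied, and that variation may be technical alone.

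Fibroblasts take up glucose through facilitative transporters and burn most of it by glycolysis, the series of cytosolic reactions that ends in pyruvate and lactate. Glucose also feeds the pentose phosphate pathway, which supplies NADPH and ribose, and the hexosamine pathway, which supplies the sugars put on proteins in the endoplasmic reticulum (ER). When glucose runs short, cells are known to activate AMPK, restrain mTORC1, release the TFEB family of lysosomal transcription factors into the nucleus, and slow translation through phosphorylation of eIF2, the trigger of the integrated stress response.

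The wild-type libraries held 20495129 and 26907502 counts in rich medium and 24324115 and 28155431 counts after starvation, where 3 counts correspond to 0.107 to 0.146 CPM. This unit is a read count scaled to a common library size, and it is used for every level, always given as replicate 1 and then replicate 2. Across 9392 genes with a mean of at least 10 CPM, the log2 ratio of replicate 1 to replicate 2 had a standard deviation of 0.155 in rich medium and 0.163 after starvation, and both pairs differed by more than sampling noise. In the knockout rich pair it was 0.770, so the wild-type comparison was fitted without the knockout libraries. The ribosomal RNA precursor Rn45s stood at 1517 and 2467 CPM in rich medium and 1721 and 4125 CPM after starvation, with overlapping groups and the highest level in starved replicate 2. Carm1 itself stood at 215 and 212 CPM in rich medium and 182 and 170.3 CPM after starvation (log2 fold change -0.28 ± 0.06, under 1.5-fold).

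Markers of fibroblasts were checked first. Of 13 listed markers, 11 had enough counts to test: the collagens Col1a1, Col1a2 and Col3a1, the intermediate filament Vim, Fn1, Pdgfra, Pdgfrb, S100a4, Prrx1, Twist1 and Dcn. Vim stood at 2279.7 and 2223 CPM in rich medium and 2601 and 2867 CPM after starvation, and Col1a2 at 2445 and 2466 CPM in rich medium and 839.8 and 895 CPM after starvation. The defining surface marker Thy1 had between 1 and 6 counts per library and the proteoglycan gene Lum had 0 counts in each, while Dcn stayed under 1 CPM. The summed level of the list was 12002 and 11932 CPM in rich medium and 8492 and 8275 CPM after starvation, with 7 of the 11 tested members lower and 0 higher. Among other cell types, Ptprc, Itgam, Tyrobp, Laptm5 and Cd52 of the leukocyte list, Tie1 and Emcn of the endothelial list, Myog and Pax7 of the muscle list, and Adipoq and Plin1 of the adipocyte list had 0 counts in all 4 libraries. The summed level of 12 leukocyte markers was 6.40 to 6.95 CPM in rich and 8.87 to 9.01 CPM in starved cells, and that of 10 endothelial markers 14.0 to 14.7 and 7.19 to 9.70 CPM. Of the tested endothelial markers Egfl7 was lower and Kdr higher. The summed level of 11 epithelial markers, nearly all of it the keratin gene Krt19, was 38.4 to 38.7 CPM in rich and 17.8 to 20.005 CPM in starved cells. Of its tested members Krt19 was lower and Cdh1 and Epcam higher, the call of Epcam being lost under 8 alternatives and that of Cdh1 under 1. The neural list held Stmn2 at 159 and 145 CPM in rich medium and 131 and 135 CPM after starvation, Map2 at 96.2 and 93.3 CPM in rich medium and 63.8 and 51.5 CPM after starvation and Tubb3 at 20.9 and 21.2 CPM in rich medium and 57.1 and 53.5 CPM after starvation. Tubb3 was its only higher gene (1.39 ± 0.09). Its summed level was 262 to 278 CPM in rich and 242 to 253 CPM in starved cells, while the transcription factors Sox2 and Olig2 had 0 counts. The adipocyte list summed to 4.44 to 4.51 CPM in rich and 7.61 to 7.90 CPM in starved cells, the cartilage and bone list to 78.0 to 79.2 and 34.1 to 35.1 CPM, and the muscle and erythroid lists to under 6 CPM in each library. Of 3 tested leukocyte markers 1 was higher and 0 lower, and of 3 adipocyte markers 2 were higher and 1 lower (1 and 0 with all 8 libraries). Of 3 muscle markers 1 was lower and 0 higher (0 and 0 with all 8 libraries). Cartilage and bone markers counted 3 lower and 0 higher of 4, and erythroid markers 0 and 0 of 3. The part of these markers in the results below was not tested, and in bulk RNA fewer cells of a type and less RNA per cell cannot be told apart.

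Of 12952 genes tested, 5554 changed by at least 1.5-fold with a Benjamini-Hochberg adjusted p under 0.05 in the edgeR quasi-likelihood test (42.9%). Of these 2589 were higher after starvation (20.0%) and 2965 lower (22.9%), and these words are used below only for genes that met both limits. The median log2 fold change of all tested genes was 0.01. Large fitted falls outnumbered large fitted rises: 274 genes were at least 4-fold higher and 567 at least 4-fold lower, and 32 were at least 16-fold higher against 70 at least 16-fold lower. These counts set no limit on level, so they include genes with few counts, for which a fitted fold is no measure of size. For 11083 genes (85.6%) the 2 starved libraries lay both above or both below the 2 rich libraries, so separation of the replicates alone marks most genes here.

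**Figure D1:**
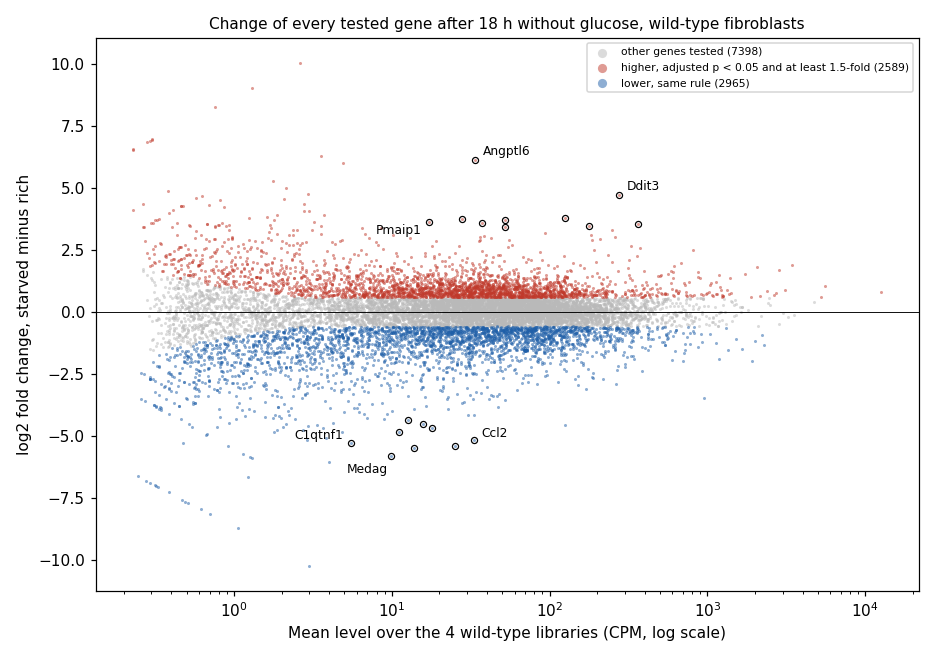
Each point is 1 of 12952 genes, with its mean CPM over the 4 wild-type libraries on a log axis and its log2 fold change (starved minus rich) on the vertical axis. The 2589 higher genes are red and the 2965 lower genes blue, circles mark the 10 largest rises and 9 of the 10 largest falls of genes above 10 CPM, from Angptl6 at 6.13 to Medag at -5.79, and the points beyond them are genes of low level, for which a fold fitted against 0 counts is no measure of size.

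Among genes with a mean of at least 10 CPM in a group, the 10 largest rises included transcriptional regulators of stress, transporters and enzymes. Angptl6, a secreted angiopoietin-like protein, went from 0.724 and 1.11 CPM to 60.8 and 71.5 CPM (log2 fold change 6.13 ± 0.16, adjusted p = 7.95e-17). Ddit3, the transcription factor CHOP, went from 20.1 and 20.4 CPM to 494 and 563 CPM (log2 fold change 4.70 ± 0.08, adjusted p = 1.22e-18). In both genes each starved library lay far above each rich one, though the choice of genes required the libraries to be apart. The pseudokinase gene Trib3, a feedback inhibitor of the ATF4 arm, went from 17.03 and 16.8 CPM to 221 and 246 CPM (3.79 ± 0.08). The arginine and lysine transporter Slc7a3 went from 8.54 and 6.66 CPM to 95.2 and 98.4 CPM (3.69 ± 0.10), and the mitochondrial acyl-CoA thioesterase Acot2 from 3.33 and 4.29 CPM to 49.4 and 54.4 CPM (3.75 ± 0.12). Acot1, a near-identical neighbour of Acot2 that could share its reads, stood at 0.434 and 0.703 CPM in rich medium and 6.16 and 6.90 CPM after starvation. Pmaip1, which encodes the BH3-only death protein NOXA, went from 2.41 and 2.66 CPM to 32.5 and 31.2 CPM (3.64 ± 0.13). The Cullin-3 adaptor Klhl24 rose by 3.59 ± 0.11 and Crebrf, a regulator of the CREB3 factor, by 3.42 ± 0.09 on the log2 scale. Herpud1, which acts in the degradation of misfolded ER proteins, rose by 3.55 ± 0.08, and Ndrg1, a stress- and hypoxia-responsive gene, by 3.46 ± 0.07. In an annotation of another build, Angptl6 overlaps Shfl, Ddit3 overlaps Mbd6 and Mars1, and Slc7a3 overlaps Snx12, and reads from the shared parts cannot be assigned here.

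Of the 10 largest falls 9 are described, most of them genes of secreted proteins. Medag, a gene of adipocyte differentiation, went from 18.8 and 19.9 CPM to 0.331 and 0.359 CPM (log2 fold change -5.79 ± 0.21, adjusted p = 1.05e-14). The growth factor Pdgfb went from 28.8 and 25.4 CPM to 0.165 and 0.970 CPM (-5.50 ± 0.25), and the starved replicates differed several-fold at 4 and 27 counts. The neutrophil chemokine Cxcl1 went from 48.4 and 50.4 CPM to 1.20 and 1.11 CPM (-5.42 ± 0.14). Ccl2, the monocyte chemokine, went from 63.9 and 64.9 CPM to 1.65 and 1.94 CPM (-5.15 ± 0.13). These chemokine levels were close between replicates of each group and far apart between groups. C1qtnf1, a secreted C1q-related protein, fell by 5.28 with 12 and 2 counts in the starved libraries. The linker histone Hist1h1c went from 22.8 and 20.5 CPM to 0.661 and 0.826 CPM (-4.84 ± 0.19). The other 3 were the PHD-finger gene Phf15 (-4.66 ± 0.15), the secreted olfactomedin-like Olfml2b (-4.49 ± 0.15) and the peptide ligand Apln (-4.34 ± 0.17).

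**Figure D2:**
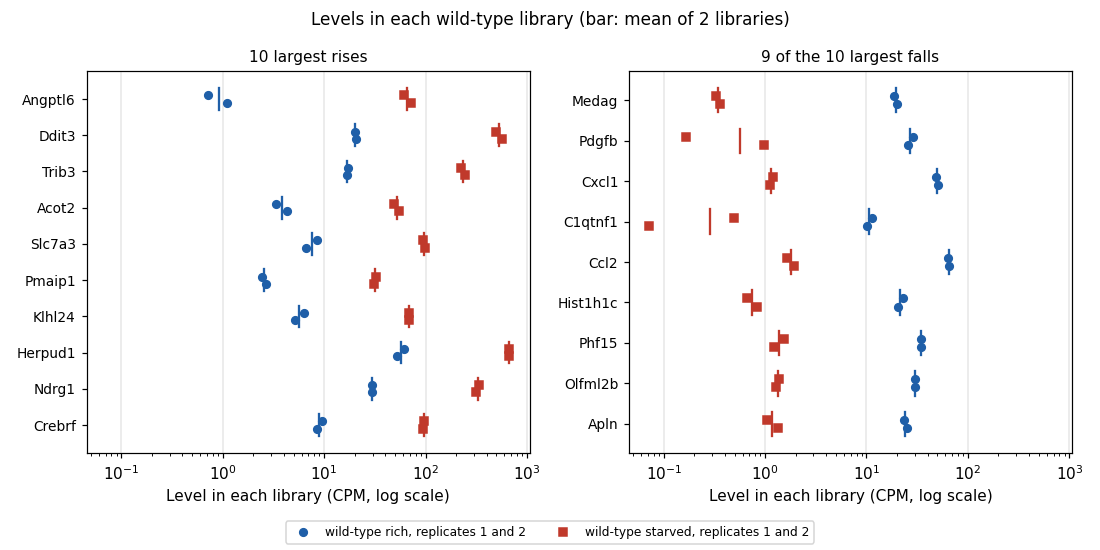
CPM in each of the 4 wild-type libraries on a log axis for the 10 genes with the largest rise (left) and 9 of the 10 with the largest fall (right), blue circles for rich medium and red squares for starved cells, with a bar at the mean of 2 libraries. Rich and starved libraries are apart in all 19 genes because the choice of genes required it. The starved replicates are widest apart for Pdgfb and C1qtnf1.

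The genes were then read by pathway in 71 lists. A list is described by how many of its tested members were higher or lower, to be set against 20.0% and 22.9% of all tested genes, and by its median log2 fold change, to be set against 0.01.

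**Figure D3:**
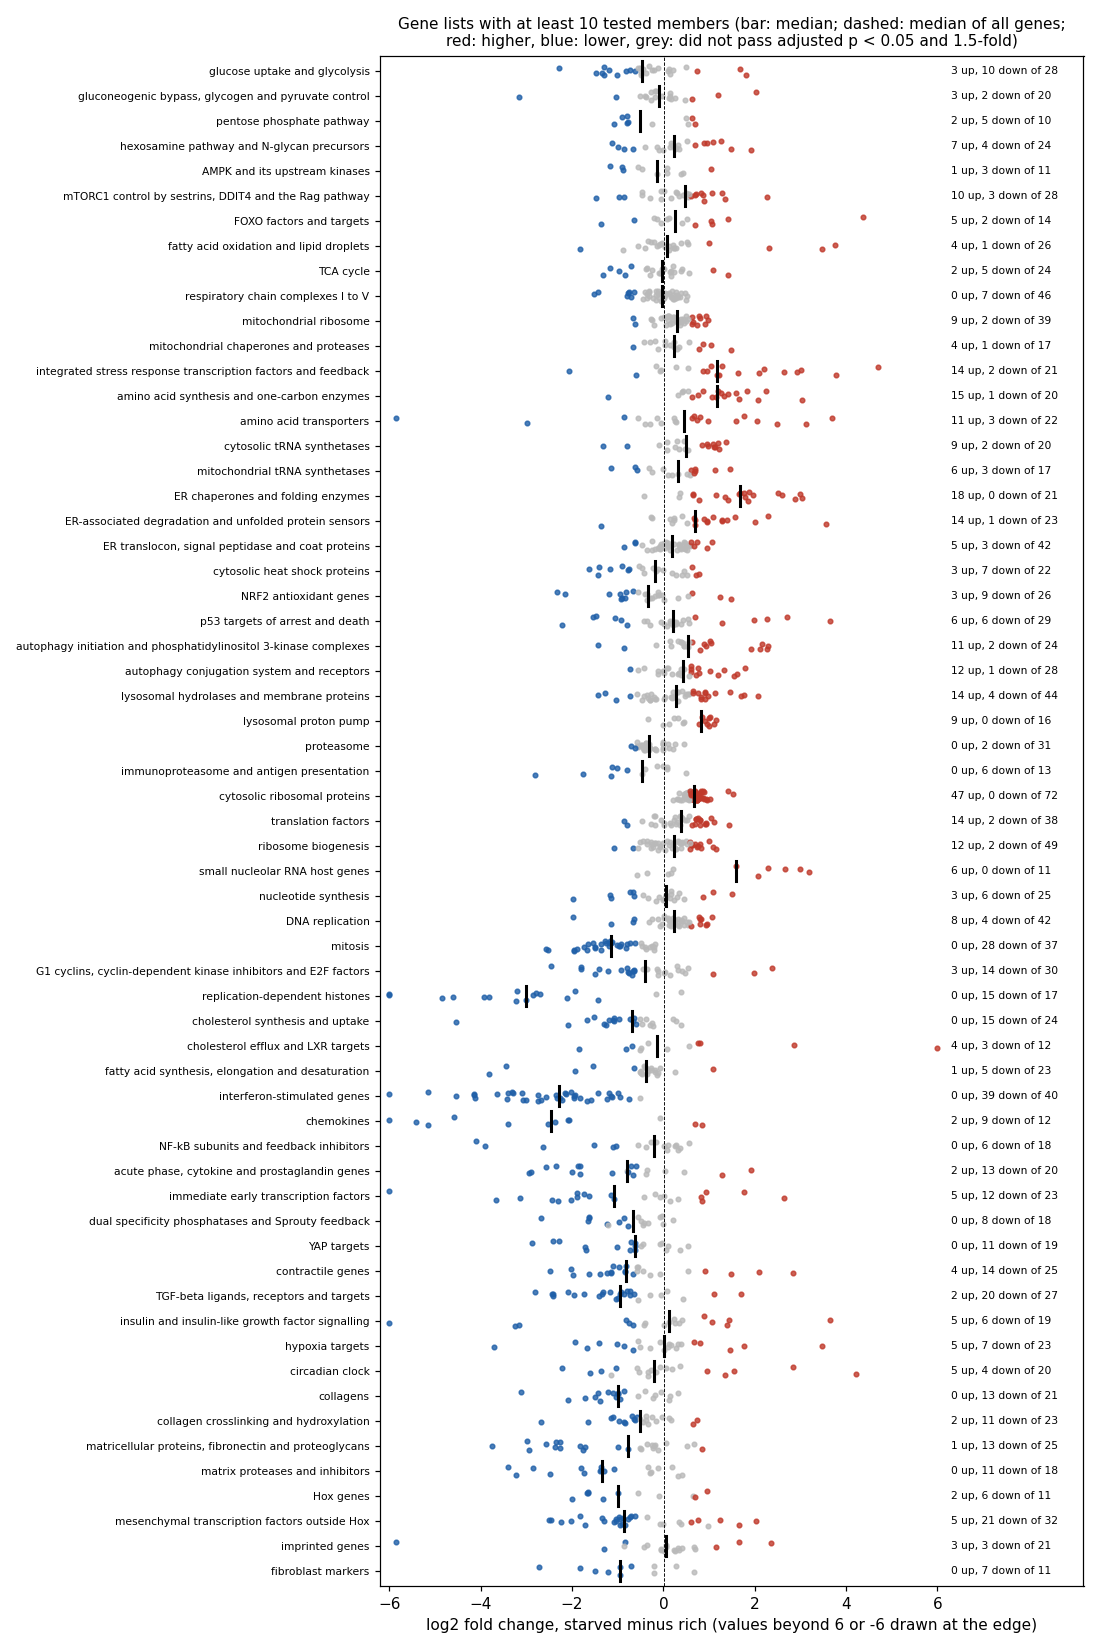
Each row is a list with at least 10 tested members, each point a member's log2 fold change (starved minus rich; red higher, blue lower, grey neither), the bar the list's median and the dashed line the median of all genes. The medians run from -3.01 for replication-dependent histones to 1.67 for ER chaperones.

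Sensors of glucose did not move as 1 block. MondoA (Mlxip) and its partner Mlx, the transcription factors that respond to glucose 6-phosphate, stood 0.39 and 0.43 higher on the log2 scale, under 1.5-fold. Their best known target Txnip, an arrestin that restrains glucose uptake, went from 21.2 and 21.3 CPM to 5.83 and 6.54 CPM (log2 fold change -1.78 ± 0.12, adjusted p = 1.42e-10). Its relative Arrdc4 moved the other way, from 0.579 and 0.740 CPM to 2.40 and 2.62 CPM (1.90 ± 0.36), though at low level. Arrdc3 stood at 14.7 and 14.9 CPM in rich medium and 13.9 and 13.8 CPM after starvation and did not pass. Arrdc2 rose by 0.70 ± 0.17, a call lost without starved replicate 2 (log2 fold change 0.50). ChREBP (Mlxipl) had a fold change over 1.5 at levels under 1 CPM, a call lost under 5 alternatives. The proximal promoter of Txnip holds a tandem carbohydrate response element, read here as CACGNG, 5 bases, CACGNG on either strand. Among 7 genes of this list with a promoter sequence, only Txnip had a match, against 0.0984% of the tested genes and 0.0487% of all 32851 windows of 300 bases. It is given from RefSeq (GRCm38.p6, chr3:96557852-96557908, plus strand), with the element in capitals starting 85 bases before the transcription start.
Txnip: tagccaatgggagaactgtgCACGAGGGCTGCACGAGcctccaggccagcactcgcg
No promoter of the 26 glycolysis genes with a window had such a match, which says only that these letters are not in this window.

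Glucose transporters and the enzymes of glycolysis were unevenly affected: 10 of 28 genes were lower, 3 were higher, and the median was -0.46. Of the transporters, the ubiquitous Slc2a1 stood at 83.0 and 76.9 CPM in rich medium and 85.6 and 85.2 CPM after starvation and did not pass. The high-affinity Slc2a3 was lower at 3.14 and 2.52 CPM in rich medium and 1.70 and 1.11 CPM after starvation, a call lost without rich replicate 1 or starved replicate 2. The intracellular transporters Slc2a6 and Slc2a8 were higher, Slc2a6 at 9.02 and 7.99 CPM in rich medium and 30.1 and 29.2 CPM after starvation (1.81 ± 0.11) and Slc2a8 by 1.67 ± 0.15. Among hexokinases Hk1 fell from 212 and 229 CPM to 132 and 134 CPM, while Hk2 stood at 52.9 and 61.3 CPM in rich medium and 64.3 and 63.2 CPM after starvation and did not pass. Pfkfb3, which makes the allosteric activator of phosphofructokinase, fell from 26.9 and 27.3 CPM to 10.0 and 9.48 CPM (-1.48 ± 0.11). Among enzymes of the main line, 3 abundant ones and the minor aldolase Aldoc (6.37 and 5.55 CPM in rich medium and 2.81 and 2.05 CPM after starvation, -1.30 ± 0.22) fell by over 2-fold. Triose phosphate isomerase Tpi1 went from 739.9 and 746 CPM to 319 and 329 CPM (-1.20 ± 0.06). Phosphoglycerate mutase Pgam1 went from 779 and 770.3 CPM to 308 and 299.9 CPM (log2 fold change -1.35 ± 0.06, adjusted p = 1.87e-13). Lactate dehydrogenase Ldha went from 1006 and 1033 CPM to 402 and 425 CPM (-1.30 ± 0.06). Between them in the pathway, Gapdh stood at 3637 and 3726 CPM in rich medium and 3354 and 3435 CPM after starvation (log2 fold change -0.12 ± 0.06, adjusted p = 0.103) and Pgk1, Eno1 and Pkm at -0.50 ± 0.06, -0.56 ± 0.06 and -0.49 ± 0.07, under 1.5-fold. The monocarboxylate transporters that move lactate and pyruvate split: the exporter Slc16a3 fell from 37.8 and 42.5 CPM to 9.67 and 6.90 CPM (-2.29 ± 0.13) and Slc16a1 rose from 81.8 and 78.6 CPM to 129 and 139.7 CPM (0.75 ± 0.07). In a fit of all 8 libraries, whose shared spread is wider, Slc2a3, Slc2a8, Pfkl and Pfkfb1 did not pass.

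At the branch points of carbon, Pck2, the mitochondrial enzyme that turns oxaloacetate into phosphoenolpyruvate, rose from 78.1 and 76.1 CPM to 299 and 328 CPM (log2 fold change 2.02 ± 0.07, adjusted p = 1.91e-15). Its cytosolic counterpart Pck1 and the fructose bisphosphatases Fbp1 and Fbp2 had 0 counts in all 4 wild-type libraries. Of the kinases that switch off pyruvate dehydrogenase, Pdk2 rose (6.56 and 7.33 CPM in rich medium and 16.7 and 15.1 CPM after starvation), Pdk4 fell (4.39 and 5.25 CPM in rich medium and 2.36 and 2.37 CPM after starvation), and Pdk1 and Pdk3 were under 1.5-fold lower (-0.52 ± 0.09 and -0.18 ± 0.08). The pyruvate carrier subunit Mpc1 rose by 0.63 ± 0.11, a call lost without rich replicate 2 or starved replicate 2, and with all 8 libraries. In the pentose phosphate pathway the oxidative enzymes that make NADPH were lower: G6pdx went from 162 and 157 CPM to 88.1 and 82.6 CPM (-0.90 ± 0.06), Pgd fell by 0.79 and the ER form H6pd by 1.08. The non-oxidative enzymes split: Rpe rose by 0.70 ± 0.07 and Rpia by 0.64 ± 0.11, Taldo1 fell (-0.80 ± 0.07), and Tkt was under 1.5-fold (0.49 ± 0.06). The call of Rpia was lost without rich replicate 2 or starved replicate 2, and those of Rpia and Taldo1 with all 8 libraries. The pathway counted 5 lower and 2 higher of 10 genes with a median of -0.51, and 3 and 1 with all 8 libraries.

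The hexosamine and N-glycan branch had 7 of 24 genes higher, 4 lower and a median of 0.22, shares not far from those of all tested genes. The UDP-N-acetylglucosamine enzymes Gnpnat1 and Pgm3 rose, Pgm3 from 30.3 and 26.1 CPM to 66.4 and 67.8 CPM (1.25 ± 0.09). The mannosyl- and glucosyltransferases that build the lipid-linked sugar chain included Alg12, at 12.1 and 10.8 CPM in rich medium and 45.2 and 40.4 CPM after starvation (log2 fold change 1.91 ± 0.10, adjusted p = 3.24e-12), Alg2 (1.48 ± 0.09) and Alg5 (1.08 ± 0.09). Alg3 and Alg1 did not pass. The first enzyme of that chain, Dpagt1, fell from 50.2 and 47.6 CPM to 22.4 and 22.02 CPM (-1.14 ± 0.09), and so did the nucleotide sugar enzyme Ugp2. Of the enzymes that cycle O-GlcNAc, the hydrolase Mgea5 rose by 0.96 ± 0.06, while the transferase Ogt was under 1.5-fold (0.35 ± 0.06).

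**Figure D4:**
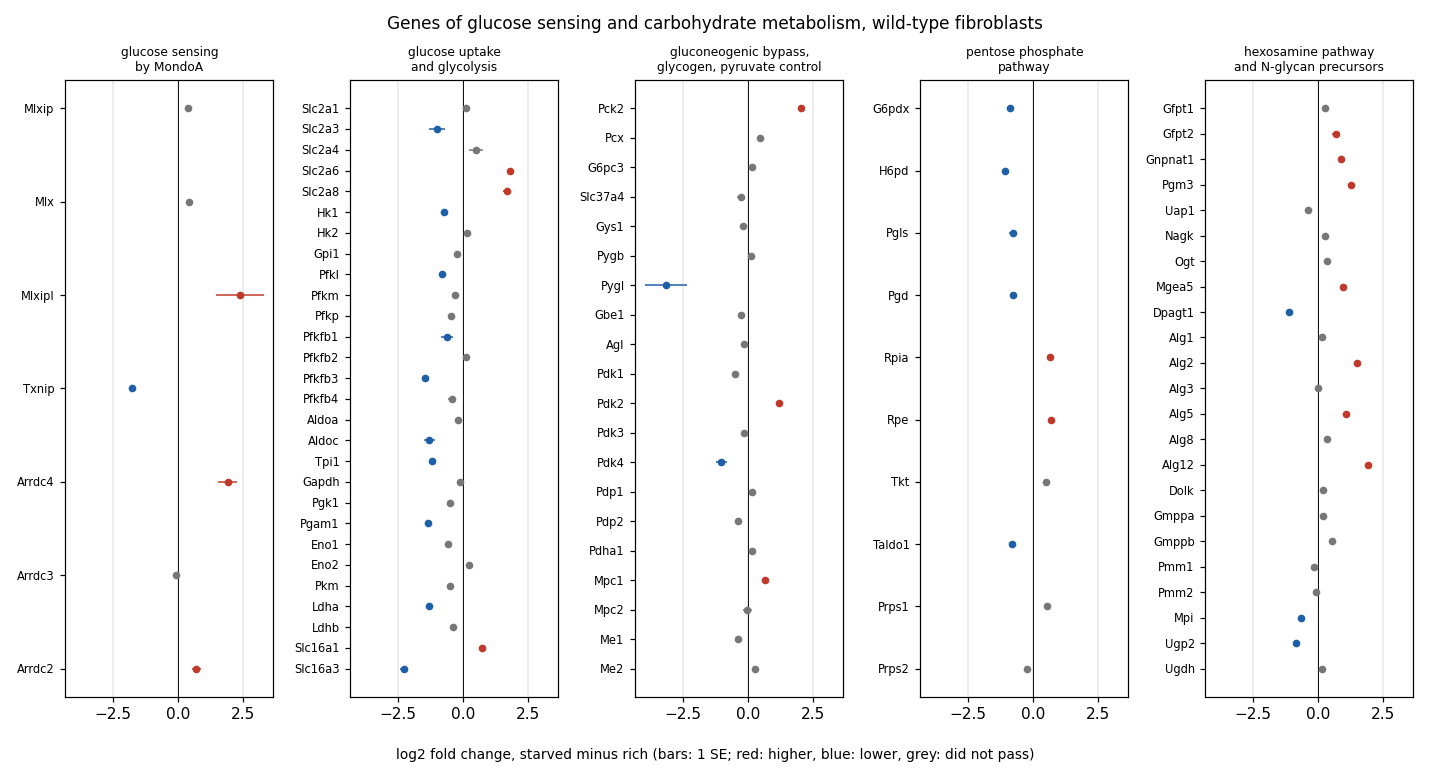
log2 fold change (starved minus rich) with 1 SE for the reported genes of the 5 carbohydrate lists, red where higher, blue where lower, grey where neither. Pgam1, Tpi1, Ldha and Slc16a3 lie at the low end of glycolysis, whereas Pck2, Alg12 and Slc2a6 lie near 2.

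AMPK and mTORC1 are the kinases that read energy and nutrients. Of 11 genes for AMPK and its upstream kinases 1 was higher and 3 lower, among them the subunits Prkab2 (-1.16 ± 0.14) and Prkag2 (-0.90 ± 0.10) and the kinase Camkk2 (-0.88 ± 0.09). Among 28 genes that control mTORC1, 10 were higher and 3 lower (median 0.47). Flcn, which acts on the Rag GTPases, went from 42.2 and 43.1 CPM to 206 and 204 CPM (log2 fold change 2.26 ± 0.06, adjusted p = 2.83e-16), and its partner Fnip1 from 61.2 and 63.8 CPM to 169 and 152 CPM (1.36 ± 0.07). The leucine sensor Sesn2 rose by 1.29 ± 0.08 and the mTORC1 inhibitor Tsc1 by 1.07 ± 0.06. Tfeb, a transcription factor of lysosome genes, fell from 19.1 and 20.1 CPM to 7.77 and 6.97 CPM (-1.41 ± 0.12), a call not made with all 8 libraries. Of 8 tested genes of that family and its control 5 were higher, including the lysosomal calcium channel Mcoln1 (38.5 and 38.7 CPM in rich medium and 129.9 and 133 CPM after starvation, 1.77 ± 0.07). Foxo1 fell from 51.2 and 57.1 CPM to 22.4 and 19.97 CPM (-1.36 ± 0.09), while some FOXO targets rose: the list counted 5 higher and 2 lower of 14 (1 lower without starved replicate 2; median 0.26). The higher ones included Insr (1.06 ± 0.08), the cyclin Ccng2 (1.41 ± 0.10) and the fasting-induced factor Klf15 (0.289 and 0.222 CPM in rich medium and 5.58 and 4.99 CPM after starvation).

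The lists of nuclear genes of mitochondria showed no shift common to all of them. Of 24 TCA cycle and glutamate genes 2 were higher and 5 lower (3 lower with all 8 libraries; median -0.03), with Glud1, which feeds glutamate into the cycle, at 244 and 251 CPM in rich medium and 518 and 528 CPM after starvation (1.08 ± 0.06). Of 46 respiratory chain subunits 0 were higher and 7 lower (median -0.03), led by Ndufb3 (-1.53 ± 0.12) and Cox7b (-1.44 ± 0.08). The mitochondrial ribosome counted 9 higher and 2 lower of 39 genes (1 lower without rich replicate 2, 0 with all 8 libraries, median 0.29). A further 16 passed the adjusted p at rises and 3 at falls under 1.5-fold. The matrix protease Lonp1 went from 266 and 268 CPM to 741 and 749 CPM (1.48 ± 0.06) and the chaperone Hspa9 rose by 0.88 ± 0.07. Among 26 genes of fatty acid oxidation and lipid droplets 4 were higher and 1 lower (2 lower without starved replicate 2), the higher ones being Acot1 and Acot2, the lipase Pnpla2 (1.00 ± 0.08, a call lost with all 8 libraries) and the droplet coat gene Plin4 (2.30 ± 0.23). None of the beta-oxidation enzymes in that list was among them.

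Genes of the integrated stress response were higher in 14 of 21 cases and lower in 2 (1 without rich replicate 1 or starved replicate 1), with a median of 1.17. Atf3, a transcription factor induced by ATF4, went from 16.02 and 14.5 CPM to 90.1 and 98.4 CPM (log2 fold change 2.63 ± 0.09, adjusted p = 1.81e-15). The phosphatase subunit Ppp1r15a, which reverses eIF2 phosphorylation, went from 43.3 and 52.8 CPM to 353 and 381 CPM (2.93 ± 0.08). The double-stranded RNA kinase Eif2ak2, also an interferon-induced gene, fell from 264 and 264 CPM to 64.1 and 62.0 CPM (-2.07 ± 0.06). Enzymes of amino acid synthesis and one-carbon metabolism were higher in 15 of 20 cases and lower in 1 (median 1.17). Asparagine synthetase Asns went from 131 and 129.9 CPM to 409.8 and 416 CPM (1.66 ± 0.06), the folate enzyme Mthfd2 from 119 and 123 CPM to 509 and 514 CPM (2.08 ± 0.06), and Cth of cysteine synthesis from 7.53 and 8.10 CPM to 62.5 and 65.9 CPM (3.03 ± 0.10). Amino acid transporters counted 11 higher and 3 lower of 22. The glycine transporter Slc6a9 went from 37.5 and 37.9 CPM to 330.4 and 323 CPM (3.11 ± 0.07), and the heavy chain Slc3a2 of several exchangers from 243 and 244 CPM to 1341 and 1401 CPM (2.49 ± 0.07). Slc38a4, an imprinted transporter, had 48 and 72 counts in rich medium against 0 and 2 after starvation. Cytosolic tRNA synthetases were higher in 9 of 20 cases and lower in 2, with Tars at 1.37 ± 0.06 and Nars at 1.22 ± 0.06. Mitochondrial synthetases counted 6 higher and 3 lower of 17.

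A C/EBP-ATF response element, the composite site bound by ATF4 and C/EBP factors, was read as TGATGNAA on either strand in the 300 bases around each start. It was found in 6 of 19 integrated stress response genes with a promoter sequence, 3 of 17 synthesis enzymes, 3 of 16 transporters and 5 of 13 cytosolic tRNA synthetases, against 2.71% of tested genes and 3.97% of all windows. In the 150 bases before the start the counts were 3, 3, 2 and 3, against 1.45% of tested genes. The promoters of Atf3 and Fgf21 are shown because both genes rose and their match lies before the start, with the match on the reverse strand in capitals. Fgf21, a secreted hormone of nutrient stress, stood at 0.193 and 0.222 CPM in rich medium and 1.74 and 1.72 CPM after starvation. The Atf3 stretch is chr1:191183416-191183463 and the Fgf21 stretch chr7:45615602-45615649, both on the minus strand of GRCm38.p6, with matches starting 110 and 139 bases before the start.
Atf3: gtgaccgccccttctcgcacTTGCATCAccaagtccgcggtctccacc
Fgf21: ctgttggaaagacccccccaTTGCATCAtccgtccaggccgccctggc

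ER chaperones and folding enzymes were higher in 18 of 21 cases and lower in 0, with a median of 1.67, the highest of the lists with at least 10 tested genes. The oxidase Ero1lb, which regenerates disulfide bonds, went from 8.15 and 8.33 CPM to 69.1 and 67.1 CPM (log2 fold change 3.04 ± 0.10, adjusted p = 1.04e-15). The co-chaperone partner Sdf2l1 went from 12.01 and 14.1 CPM to 94.2 and 100.3 CPM (2.89 ± 0.09). Creld2, a secreted ER stress protein, went from 58.5 and 56.3 CPM to 315 and 338 CPM (2.51 ± 0.07), and the disulfide isomerase Pdia4 from 268 and 282 CPM to 1076 and 1078 CPM (1.97 ± 0.06). In each, both starved libraries lay several-fold above both rich ones. The degradation and sensor genes counted 14 higher and 1 lower of 23 (median 0.70), with the ubiquitin ligase Syvn1 at 75.6 and 82.4 CPM in rich medium and 395 and 385 CPM after starvation (2.30 ± 0.07) and the sensor Atf6 at 71.5 and 70.2 CPM in rich medium and 201 and 174 CPM after starvation (1.40 ± 0.07). The translocon, signal peptidase and vesicle coat genes counted 5 higher and 3 lower of 42 (median 0.19). An ER stress element, read as CCAAT, 9 bases and CCACG on either strand, was present in 8 of 19 chaperone promoters, namely those of Calr, Canx, Creld2, Dnajc3, Ero1lb, Hsp90b1, Hspa5 and Pdia6. It was present in 2 of 19 of the degradation list (1 in the 150 bases before the start), against 0.167% of tested genes and 0.119% of all windows. The stretches of Ero1lb (chr13:12565662-12565720) and Creld2 (chr15:88819500-88819558), on the plus strand of GRCm38.p6, carry it on the reverse strand, in capitals, starting 201 and 126 bases before the start.
Ero1lb: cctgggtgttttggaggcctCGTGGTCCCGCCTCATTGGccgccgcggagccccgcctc
Creld2: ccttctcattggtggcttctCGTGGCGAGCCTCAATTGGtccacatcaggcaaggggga

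Other stress programmes did not follow the ER. Cytosolic heat shock proteins counted 3 higher and 7 lower of 22 (1 and 4 with all 8 libraries). A further 5 passed the adjusted p at rises and 4 at falls under 1.5-fold. Their summed level was 12697 and 13019 CPM in rich medium and 15259 and 15656 CPM after starvation. Hsph1 went from 259 and 259.6 CPM to 86.9 and 82.0 CPM (log2 fold change -1.62 ± 0.06, adjusted p = 1.97e-14) and Hspa4 from 560.5 and 554 CPM to 204 and 211 CPM (-1.42 ± 0.06), both of the HSP110 family. The antioxidant genes driven by NRF2 counted 3 higher and 9 lower of 26 (median -0.33). Within them haem oxygenase Hmox1 rose (60.1 and 58.4 CPM in rich medium and 159.6 and 168 CPM after starvation) and so did the glutathione-synthesising Gclc (1.23 ± 0.07), while Prdx1 (-1.20 ± 0.06) and Gstm1 (-2.15 ± 0.11) fell. Targets of p53 counted 6 higher and 6 lower of 29, which is close to the shares of all tested genes. The cell cycle inhibitor Cdkn1a rose from 14.4 and 20.1 CPM to 66.6 and 71.9 CPM (1.99 ± 0.11) and Gadd45a from 14.3 and 16.2 CPM to 96.5 and 104 CPM (2.70 ± 0.09). Its paralogue Gadd45g fell from 38.8 and 34.7 CPM to 7.57 and 8.19 CPM (-2.22 ± 0.11), and the survival gene Mcl1 fell from 173 and 178 CPM to 57.5 and 62.3 CPM (-1.55 ± 0.07).

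The study's own interest, autophagy, was represented by 11 higher and 2 lower of 24 initiation genes (median 0.55) and 12 higher and 1 lower of 28 conjugation and receptor genes (2 lower without starved replicate 1; median 0.43). Atg13, a subunit of the initiating ULK complex, went from 27.0 and 27.5 CPM to 118 and 119 CPM (log2 fold change 2.12 ± 0.07, adjusted p = 2.12e-15). Ambra1, a scaffold of the same step, went from 67.3 and 68.3 CPM to 139 and 135 CPM (1.01 ± 0.06). Wdr45 went from 13.2 and 13.4 CPM to 64.0 and 66.7 CPM, Atg14 from 12.6 and 9.21 CPM to 48.6 and 48.5 CPM and the receptor Calcoco1 from 36.3 and 37.9 CPM to 131 and 125 CPM. All of these rose with no overlap between groups, a separation found in 85.6% of all tested genes. Of 44 tested lysosomal hydrolase and membrane protein genes 14 were higher and 4 lower (median 0.27). The vacuolar proton pump, which acidifies the lysosome, had 9 of 16 subunits higher, 0 lower and a median of 0.82. Its subunits Atp6v1c1 and Atp6v0b rose by 1.15 ± 0.06 and 1.12 ± 0.07. The CLEAR element, the site of the TFEB family, was read as TCACGTGA. It lay in 5 of 35 lysosomal promoters, 3 of 11 pump promoters, 1 of 23 of the conjugation list and 0 of 19 of the initiation list, against 2.19% of tested genes and 0.974% of all windows. Before the start alone 1 of the 11 pump promoters held it, that of Atp6v1a, a gene not called. The 2 stretches below are from lysosomal genes that rose, Mcoln1 (chr8:3500453-3500500, plus strand, 46 bases before the start) and the Batten disease gene Cln3 (chr7:126583331-126583378, minus strand, 122 bases before the start; 0.772 and 0.999 CPM in rich medium and 3.80 and 3.77 CPM after starvation).
Mcoln1: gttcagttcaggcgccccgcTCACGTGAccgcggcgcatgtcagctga
Cln3: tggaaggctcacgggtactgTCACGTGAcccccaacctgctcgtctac
The proteasome, the other main route of protein breakdown, moved slightly the other way. Of 31 subunits 0 were higher and 2 lower (4 lower without rich replicate 2 or starved replicate 2), and 19 more passed the adjusted p at falls under 1.5-fold (median -0.32). The interferon-inducible subunits and antigen presentation genes counted 0 higher and 6 lower of 13, with the peptide-loading factor Tapbp at 190.5 and 206 CPM in rich medium and 27.0 and 29.7 CPM after starvation (-2.80 ± 0.07).

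Genes of ribosomal proteins rose while division genes fell. Of 72 ribosomal protein genes 47 were higher and 0 lower, the other 25 passed the adjusted p at rises under 1.5-fold, and the median was 0.66. The count moved to 31 without starved replicate 2, up to 59 without another library, and 30 with all 8 libraries. Rpl3 went from 915 and 879.6 CPM to 2497 and 2668 CPM (log2 fold change 1.53 ± 0.07, adjusted p = 1.01e-13) and Rpl10a from 482 and 473 CPM to 1236 and 1308 CPM (1.41 ± 0.06). Processed copies of these genes could share their reads. The summed level of the list was 39698 and 39806 CPM in rich medium and 61794 and 68259 CPM after starvation. Translation factors counted 14 higher and 2 lower of 38 (1 lower with all 8 libraries), with the elongation factor Eef2 at 3589 and 3685 CPM in rich medium and 7443 and 7451 CPM after starvation (1.03 ± 0.06, a call lost with all 8 libraries) and the start-site factor Eif1 at 264 and 276 CPM in rich medium and 695 and 768 CPM after starvation (1.44 ± 0.07). Ribosome biogenesis genes counted 12 higher (24.5%, near the share of all tested genes) and 2 lower of 49, and 8 higher with all 8 libraries. A further 15 of them passed the adjusted p at rises and 11 at falls under 1.5-fold. Host genes of small nucleolar RNAs, non-coding transcripts whose spliced forms are turned over during translation, had 6 higher and 0 lower of 11 (1 lower without rich replicate 1 or starved replicate 2) and a median of 1.59. Snhg12 went from 19.3 and 17.9 CPM to 165 and 174 CPM (log2 fold change 3.19 ± 0.07, adjusted p = 2.62e-17), Snhg5 from 56.4 and 59.2 CPM to 445 and 478 CPM (3.00 ± 0.07) and Snhg1 from 90.5 and 88.0 CPM to 543 and 581 CPM (2.65 ± 0.07).

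The cell cycle lists differed in their counts. Of 37 mitosis genes 28 were lower and 0 higher, the other 9 passed the adjusted p at smaller falls, and the median was -1.16. The mitotic kinase Plk1 went from 156 and 163 CPM to 26.9 and 27.2 CPM (log2 fold change -2.56 ± 0.07, adjusted p = 1.20e-16), the cyclin Ccnf from 121 and 126 CPM to 20.5 and 22.6 CPM (-2.52 ± 0.08) and topoisomerase Top2a from 1108 and 1102 CPM to 284 and 285 CPM (-1.96 ± 0.06). Of 42 DNA replication genes 4 were lower and 8 higher (median 0.23), the share of higher genes being near that of all genes. The origin licensing genes Cdt1 and Cdc6 and the origin firing gene Mcm10 rose, Cdc6 from 79.8 and 81.3 CPM to 158 and 155 CPM (log2 fold change 0.96 ± 0.06, adjusted p = 3.72e-11) and Cdt1 from 83.2 and 83.9 CPM to 168 and 182 CPM (1.07 ± 0.06), the latter not called with all 8 libraries. Enzymes that supply deoxynucleotides in S phase fell, thymidine kinase Tk1 from 129.5 and 137 CPM to 32.0 and 35.02 CPM (-1.99 ± 0.07) and the reductase subunit Rrm2 from 203 and 208 CPM to 94.0 and 92.4 CPM (-1.14 ± 0.06). The reductase subunit Rrm2b, a p53 target used outside S phase, rose by 1.51 ± 0.10. Among G1 regulators 14 of 30 were lower and 3 higher. Cyclin D1 (Ccnd1) went from 317 and 321 CPM to 58.5 and 58.3 CPM (-2.45 ± 0.06), while E2f1 rose from 59.6 and 63.7 CPM to 131 and 129 CPM (1.08 ± 0.06) and the MYC antagonist Mxd1 from 8.68 and 7.59 CPM to 41.9 and 41.9 CPM (2.37 ± 0.11).

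Replication-dependent histone genes had the lowest median of the lists with at least 10 tested members, -3.01, with 15 of 17 tested genes lower and 0 higher. The other 20 of 37 listed had too few counts to test. The summed level of the listed genes was 45.2 and 50.7 CPM in rich medium and 6.24 and 7.40 CPM after starvation. Hist1h2bk had 59 counts over the rich libraries and 0 over the starved ones, at least 21.8-fold lower against a floor of 3 counts over the group, which covers counting error only. These transcripts lack a poly(A) tail, are near-identical to each other, and could share reads or be lost in a selection for poly(A), so their values are uncertain.

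The cell cycle homology region, a binding site of regulators of mitotic genes, was read as TTTGAA. It lay in 22 of 32 mitosis promoters, against 14.2% of tested genes and 17.9% of all windows, the short motif being common. In the bases before the start alone the count was 11, against 12.7% of tested genes. An E2F site, read as TTTNNCGC, lay in 15 of 36 replication promoters, against 10.1% and 5.17%, and in 9 before the start alone, against 8.47% of tested genes. One promoter of each kind is shown, Ube2c among the falling mitosis genes (chr2:164769880-164769925, plus strand, 29 bases before the start; 203 and 199 CPM in rich medium and 53.5 and 49.4 CPM after starvation) and Cdc6 among the rising replication genes (chr11:98907993-98908040, plus strand, 138 bases before the start), both matches being on the reverse strand.
Ube2c: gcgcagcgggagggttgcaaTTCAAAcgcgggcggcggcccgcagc
Cdc6: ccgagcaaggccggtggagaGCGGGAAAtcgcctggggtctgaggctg

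Genes of cholesterol synthesis and uptake fell in most cases. Of 24 cholesterol genes 15 were lower and 0 higher (median -0.70). Idi1, the isomerase of the isoprenoid precursors, went from 107 and 106 CPM to 35.6 and 38.0 CPM (log2 fold change -1.53 ± 0.07, adjusted p = 2.27e-13). The transcription factor gene Srebf2 fell by 1.09, a call not made with all 8 libraries. Fatty acid synthesis genes counted 5 lower (21.7%, near the share of all tested genes) and 1 higher of 23, and 13 more passed the adjusted p at falls under 1.5-fold (median -0.37). The desaturase Scd2 went from 1760.2 and 1745 CPM to 167 and 152 CPM (-3.46 ± 0.07) and the elongase Elovl6 from 86.1 and 89.1 CPM to 6.24 and 6.25 CPM (-3.81 ± 0.10), whereas Elovl4, which makes very long chains, rose by 1.09 ± 0.10. Srebf1 stood at 162 and 160.0 CPM in rich medium and 113 and 114 CPM after starvation, under 1.5-fold. Genes of cholesterol storage, efflux and LXR control counted 4 higher and 3 lower of 12 (median -0.14). Among them the sterol acyltransferase Soat1 rose by 0.80 ± 0.07, and Soat2 went from 2 counts in each rich library to 7.61 and 6.36 CPM, while the acyltransferase Lpcat3 fell by 0.69. A sterol regulatory element, read as TCACNCCAC, was found in 0 of 16 cholesterol and 1 of 20 fatty acid promoters, against 1.36% of tested genes and 1.24% of all windows. Only 7 of the 15 lower cholesterol genes and 3 of the called fatty acid genes had a window, and the counts cover only these letters in these windows.

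Among lists with at least 10 tested members, interferon-stimulated genes had the largest share called: 39 of 40 tested genes were lower, 0 were higher, and the median was -2.30. The remaining gene passed the adjusted p at a fall under 1.5-fold. Ifi204, a sensor of DNA, went from 62.7 and 62.9 CPM to 4.01 and 3.12 CPM (log2 fold change -4.15 ± 0.12, adjusted p = 2.62e-16). The RNA-binding effector Ifit1 went from 50.7 and 55.1 CPM to 4.22 and 4.27 CPM (-3.64 ± 0.11) and the transcription factor Irf1 from 98.1 and 98.9 CPM to 18.9 and 20.5 CPM (-2.32 ± 0.08). The interferon-stimulated response element, read as GAAANNGAA, was present in 19 of 28 promoters of the list, against 8.31% of tested genes and 8.56% of all windows. In Oas3, the synthetase of 2′-5′ oligoadenylates (4.92 and 3.48 CPM in rich medium and 0.248 and 0.215 CPM after starvation), 2 matches overlap in the stretch chr5:120777700-120777754 (minus strand), starting 75 bases before the start.
Oas3: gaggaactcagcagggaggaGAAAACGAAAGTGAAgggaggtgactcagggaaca

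Chemokines were lower in 9 of 12 tested cases and higher in 2 (1 higher without starved replicate 1, 0 with all 8 libraries; median -2.46). The fibroblast chemokine Cxcl12 went from 206 and 217 CPM to 44.3 and 37.5 CPM (log2 fold change -2.37 ± 0.08, adjusted p = 1.19e-15) and the membrane-bound Cx3cl1 from 43.6 and 39.7 CPM to 3.93 and 3.91 CPM (-3.41 ± 0.12). The NF-kB feedback inhibitors fell, Tnfaip3 from 41.5 and 43.8 CPM to 2.69 and 2.98 CPM (-3.91 ± 0.12) and Nfkbia from 61.1 and 63.7 CPM to 28.2 and 30.1 CPM (-1.10 ± 0.08). The NF-kB list as a whole, subunits included, counted 6 lower and 0 higher of 18 (1 higher without rich replicate 2 or starved replicate 1) with a median of -0.22. Acute phase, cytokine and prostaglandin genes counted 13 lower and 2 higher of 20, with the macrophage growth factor Csf1 at 464 and 464 CPM in rich medium and 63.2 and 60.9 CPM after starvation (-2.90 ± 0.07) and the adhesion molecule Vcam1 at 109 and 110.1 CPM in rich medium and 28.5 and 32.9 CPM after starvation (-1.84 ± 0.08). An NF-kB site, read as GGGANNTTC, lay in 2 of 7 chemokine promoters (Cxcl1 and Cxcl10), 3 of 15 of the NF-kB list and 1 of 15 of the acute phase list, against 4.32% of tested genes and 3.94% of all windows. In the 150 bases before the start the counts were 1, 1 and 0, against 1.99% of tested genes. The Cxcl1 stretch (chr5:90891154-90891204, plus strand) carries overlapping matches on both strands, starting 71 bases before the start.
Cxcl1: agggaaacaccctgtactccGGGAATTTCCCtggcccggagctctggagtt

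In each list of genes read as outputs of growth factor, mechanical and TGF-beta signalling, more genes were lower than higher. Of 23 immediate early genes 12 were lower and 5 higher (2 higher with all 8 libraries). Egr1 went from 106 and 116 CPM to 12.2 and 12.8 CPM (log2 fold change -3.15 ± 0.08, adjusted p = 1.08e-16) and Fosl2 from 86.2 and 88.4 CPM to 17.4 and 17.8 CPM (-2.31 ± 0.08). Egr2 had 48 counts over the rich libraries and 0 over the starved ones, at least 17.7-fold lower against 3 counts over the group. Feedback phosphatases and Sprouty-family inhibitors of the MAP kinase pathway counted 8 lower and 0 higher of 18, with Dusp5 at -2.67 ± 0.16. Targets of the coactivator YAP counted 11 lower and 0 higher of 19 (1 higher without starved replicate 1), the connective tissue growth factor Ctgf going from 149 and 143 CPM to 20.01 and 19.4 CPM (-2.89 ± 0.07). Of 25 contractile genes 14 were lower and 4 higher (2 higher without rich replicate 2; median -0.81). Beta-actin Actb, often used as a reference gene, went from 2937 and 3150.3 CPM to 756 and 789 CPM (log2 fold change -1.98 ± 0.07, adjusted p = 2.89e-15), and tropomyosin Tpm1 from 1029.6 and 1113 CPM to 336 and 354 CPM (-1.64 ± 0.07). Tagln, the smooth muscle protein transgelin, moved the other way from 171 and 166 CPM to 453 and 488 CPM (1.48 ± 0.06). The CArG box, the site of serum response factor, lay in 2 of 17 immediate early and 5 of 21 contractile promoters (3 in the 150 bases before the start), against 1.60% of tested genes and 1.63% of all windows. Srf itself fell from 111 and 118 CPM to 54.3 and 49.9 CPM (-1.14 ± 0.07). TGF-beta ligands, receptors and targets counted 20 lower and 2 higher of 27 (median -0.96), with the ligands Tgfb2 (-2.43 ± 0.11) and Tgfb3 (-2.45 ± 0.10), the transducer Smad3 (-1.95 ± 0.08) and the target Id1 (-2.41 ± 0.09).

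Insulin, hypoxia and clock genes were higher and lower at shares near those of all tested genes, so their counts set none of these lists apart. The insulin receptor Insr rose from 29.3 and 27.2 CPM to 59.6 and 58.1 CPM, and its substrate Irs1 fell from 65.3 and 67.6 CPM to 6.49 and 7.43 CPM (-3.25 ± 0.10). The growth factor Igf1 had 179 and 195 counts in rich medium against 4 and 2 after starvation. The list counted 5 higher and 6 lower of 19. Hypoxia targets counted 5 higher and 7 lower of 23 (median 0.01), with Vegfa at 57.9 and 63.1 CPM in rich medium and 169.8 and 163 CPM after starvation (1.46 ± 0.07) and the oxygen sensor Egln1 at 86.6 and 87.7 CPM in rich medium and 34.3 and 31.4 CPM after starvation (-1.41 ± 0.07). Clock genes counted 5 higher and 4 lower of 20. The repressor Cry1 rose from 20.1 and 19.1 CPM to 57.3 and 56.8 CPM (1.54 ± 0.09) and Gm129, known as the clock repressor CHRONO, from 3.47 and 5.70 CPM to 33.9 and 33.2 CPM (2.84 ± 0.15). The repressor Bhlhe40 fell by 2.22 and Clock by 1.04. The groups were collected at 0 h and 18 h, so time of day cannot be told apart from the medium.

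The extracellular matrix, the main product of fibroblasts, was lower at several levels. Of 21 collagen genes 13 were lower and 0 higher (median -0.996). Col6a1 went from 468 and 507 CPM to 109.9 and 120.0 CPM (log2 fold change -2.08 ± 0.07, adjusted p = 1.72e-15) and Col1a1 from 2881 and 2914 CPM to 1453 and 1562 CPM (-0.94 ± 0.06). The crosslinking and hydroxylation enzymes counted 11 lower and 2 higher of 23 (6 lower with all 8 libraries), with the lysyl oxidase Loxl1 at 311 and 337 CPM in rich medium and 46.3 and 54.8 CPM after starvation (-2.68 ± 0.08). Matricellular proteins and proteoglycans counted 13 lower and 1 higher of 25. Thrombospondin Thbs1 went from 260.0 and 258 CPM to 44.9 and 42.1 CPM (-2.57 ± 0.07), while fibronectin Fn1 stood at 3549.8 and 3443 CPM in rich medium and 3341 and 2690.3 CPM after starvation (-0.21 ± 0.08, under 1.5-fold). Matrix proteases and inhibitors counted 11 lower and 0 higher of 18 (median -1.33), with the aggrecanase Adamts5 at 80.4 and 79.9 CPM in rich medium and 6.86 and 8.22 CPM after starvation (-3.40 ± 0.10) and the plasminogen activator Plat at 112 and 121 CPM in rich medium and 16.2 and 16.2 CPM after starvation (-2.85 ± 0.08). Of the transcription factors of mesenchymal identity 21 of 32 were lower and 5 higher (13 and 2 with all 8 libraries, 3 higher without rich replicate 2), among them Prrx1 (-1.82 ± 0.07) and Lhx9 (-2.03 ± 0.08). Hox genes counted 6 lower and 2 higher of 11 tested (1 higher without rich replicate 2 or starved replicate 1, or with all 8 libraries), Hoxa11 going from 41.3 and 41.2 CPM to 9.39 and 11.1 CPM (-2.002 ± 0.10). Imprinted genes counted 3 higher and 3 lower of 21 (1 lower with all 8 libraries, in DESeq2 or with a minimum of 5 CPM in 2 libraries), with the growth regulator Plagl1 rising from 15.97 and 13.2 CPM to 49.2 and 41.8 CPM (1.64 ± 0.11).

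The same contrast exists for Carm1 knockout fibroblasts, and the difference between the responses was tested in a fit of all 8 libraries. It passed for 1853 of 13882 genes (13.3%). The knockout rich libraries stood far apart from each other, and leaving out replicate 1 of that pair gave 4602 of 14263 (32.3%). Leaving out replicate 2 of it gave 6287, and leaving out any 1 of the other 6 gave 452 to 487. For 19 of the 20 genes with the largest wild-type changes and the 6 glucose sensing genes tested there, the difference passed in 20 of 25 genes, and in 23 without knockout rich replicate 1. Where a rich group holds 1 library, it is assumed to vary like the others. The wild-type values of the genes with the largest changes were chosen for their size, so a smaller response in the other genotype can be in part a product of that choice. In the knockout, Ccl2 and Cxcl1 had log2 fold changes of 1.27 ± 0.12 and 0.57 ± 0.12, against falls of over 5 in wild type, and Crebrf and Klhl24 had -0.12 ± 0.19 and -0.77 ± 0.23. Txnip fell farther in the knockout (-4.65 ± 0.17) than in wild type, a difference of 2.87 ± 0.22 (adjusted p = 0.000955). Arrdc4 stood lower after starvation in the knockout (-1.57 ± 0.27) and higher in wild type, a difference of 3.48 ± 0.41. Of the 42 DNA replication genes tested, the difference passed in 27, each with the wild-type value above the knockout value (34 above and 1 below without knockout rich replicate 1).

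**Figure D5:**
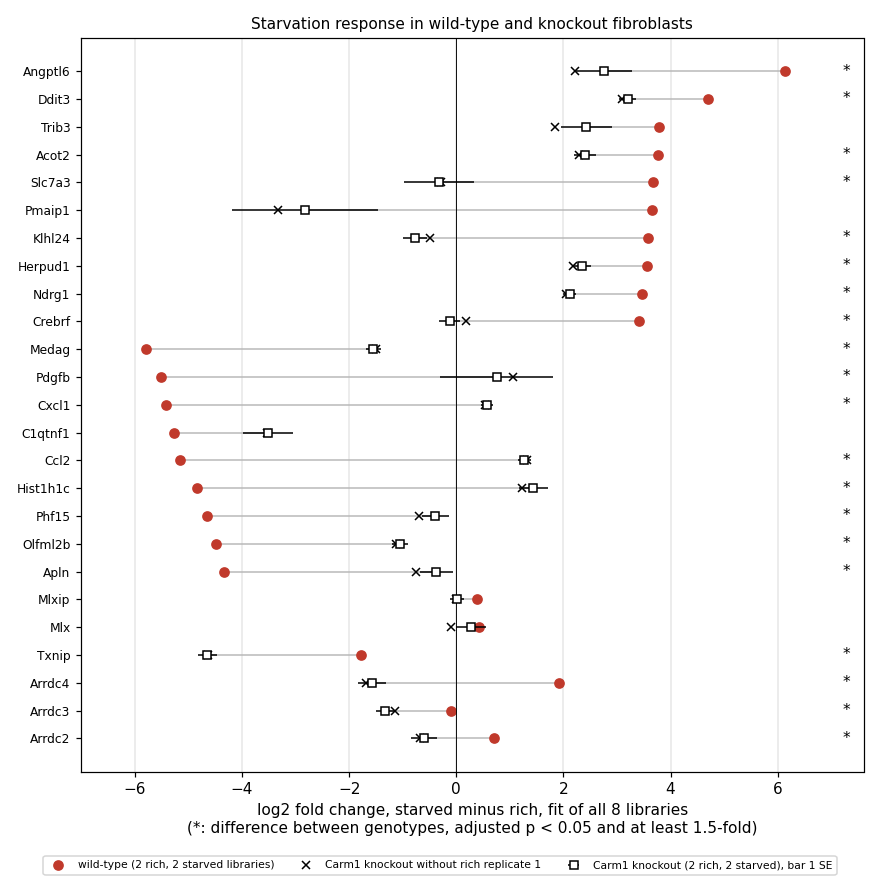
log2 fold change (starved minus rich) from the fit of all 8 libraries for 19 of the 20 genes with the largest wild-type changes and 6 glucose sensing genes, red circles for wild type, open squares with 1 SE for Carm1 knockout, and crosses for the knockout value without its rich replicate 1. Stars mark the 20 genes whose difference passed. The signs are opposite in the genotypes for 10 of the 25 genes, counted without a limit on size or p. Of these, only Cxcl1, Ccl2, Hist1h1c and Arrdc4 had a knockout change with an adjusted p under 0.05 in that fit.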

How the data were processed

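RNA-seq counts of 4 wild-type libraries, 2 per group, were compared, and the other 4 RNA libraries entered the test between genotypes and an alternative fit. Per the file headers and labels, the deposited tables give raw counts for RefSeq transcripts on mouse mm9. Per the submitters' processing notes the reads were aligned with TopHat2 2.0.9, with bedtools also named. The sources used here do not state the counting tool's settings, strand use or treatment of multiply matched reads, so overlapping, antisense and near-identical genes may share counts. For each of 23366 symbols the transcript with the highest total over the 8 libraries was kept from 31055 rows. Genes were filtered with filterByExpr, library sizes were scaled by TMM, and quasi-likelihood tests were run in edgeR 4.0.16 (R 4.3.3) on the wild-type libraries alone (biological coefficient of variation 5.33%). A gene was called at a Benjamini-Hochberg adjusted p under 0.05 and a change of at least 1.5-fold, and ± is a standard error. CPM were computed here from the counts of each library.

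On counts simulated for this comparison over 12823 genes, 67 genes were changed 1.5-fold, 67 were changed 2-fold and 66 were changed 4-fold. Of those tested, the fit recovered 39.4%, 93.9% and 100%, with 2 false among 156 calls. A call needs an estimate of at least 1.5-fold, so genes changed by just that much can miss it whatever the number of libraries. Far fewer genes were changed there than were called in the data, so the share of false calls does not carry over. For the difference between responses over 13507 genes the fit recovered 0% at 1.5-fold and at 2-fold and 39.1% at 4-fold, with 2 false among 27 calls.

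Named genes were the 10 largest rises and falls among called genes with at least 10 CPM in a group and replicates apart, leaving out predicted and small RNA genes, all members of the glucose and marker lists, the 5 members with the smallest p of each other list, and Carm1. A few genes that the rule names, 1 of the largest falls among them, are not reported here, but they remain in the counts of lists and of all genes. Rn45s and Egr2 were chosen after their values were seen, and Fgf21, Cln3 and Oas3 were taken for their promoter sequences. The members and lists were chosen with earlier results of these data known. Promoters are RefSeq windows of GRCm38.p6, 250 bases before to 50 after a start, found for 10205 of the 12952 tested genes. Alternatives were limma-voom (limma 3.58.1), DESeq2 1.42.0, RLE factors, total counts, a minimum of 5 CPM in 2 libraries, no filter, a replicate block, other limits of change, all 8 libraries, another transcript per gene, each library left out, and other promoter windows.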

Additional observations from a re-analysis of the deposited data

Results flagged for a closer look

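A closer look was marked where the response to starvation differed between wild-type and Carm1 knockout fibroblasts, by the test of the difference itself in the fit of all 8 libraries. Values are the log2 response in wild-type cells minus that in knockout cells. Over all genes tested the difference passed for 1853 of 13882 (13.3%). The largest rises and falls were chosen by their wild-type response, which is also part of the difference. A high count among them can therefore be in part a product of that choice. Among the 10 largest wild-type rises the difference passed for 8 genes. It was 3.39 for Angptl6, 1.51 for Ddit3, 1.35 for Acot2, 3.999 for Slc7a3, 4.36 for Klhl24, 1.21 for Herpud1, 1.35 for Ndrg1 and 3.54 for Crebrf. Among 9 of the 10 largest wild-type falls it passed for 8 genes. It was -4.24 for Medag, -6.27 for Pdgfb, -5.99 for Cxcl1, -6.42 for Ccl2, -6.28 for Hist1h1c, -4.27 for Phf15, -3.44 for Olfml2b and -3.97 for Apln. Among the glucose sensing genes it was 2.87 for Txnip, 3.48 for Arrdc4, 1.24 for Arrdc3 and 1.31 for Arrdc2. The knockout rich replicates stood far apart from each other, and the number of genes that passed over all genes depended strongly on which library was left out. Groups of 2 libraries are too small for a test of single outlying samples.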

How the results depend on the processing

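In simulated data with 2 libraries per group, changes of 1.5-fold were called less often than larger ones. The 1.5-fold minimum itself lowers that share, whatever the number of libraries. Levels near 3 counts are not resolved. Dropping the 1.5-fold minimum raised the genes called in wild-type cells to 9332, 4716 higher and 4616 lower, and a 2-fold minimum lowered them to 3047, 1207 higher and 1840 lower. All other alternatives kept these counts within 1.5 times, from 4088 in a test against 1.5-fold to 5658 in a fit without knockout rich replicate 1. Leaving out 1 wild-type library gave 5316 to 5550, where the lone library of its group is assumed to vary like the others. The difference between genotypes passed for 452 to 6287 genes when 1 library was left out, and the cause was not tested. Replicate numbers are shared between groups, but the differences between replicates of the wild-type groups correlated at only 0.061 over 9392 genes, so the numbers are not taken as pairs. With a replicate block, 5510 genes were called in wild-type cells and 1491 for the difference. Of 6916 alternative values of named genes, 165 lost and 53 gained a call and 0 called ones changed sign. Of 339 called named genes, 31 lost the call with all 8 libraries and 16 without a wild-type library. Of 2408 counts of list members, 228 moved by over 1.5 times, as did 5 of 44 motif shares beyond their interval.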

Other observations

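Differences between the genotypes' responses were also counted within the lists, where 814 of the 12952 genes tested in wild-type cells had the wild-type value above the knockout value and 1013 below it. Contractile genes had 0 above and 16 below of 25, immediate early genes 0 and 16 of 23, feedback phosphatases and Sprouty genes 0 and 12 of 18, YAP targets 0 and 12 of 19, chemokines 0 and 9 of 12, and mitosis genes 0 and 12 of 37. Hypoxia targets had 9 above and 0 below of 23, ER chaperones 10 and 1 of 21, autophagy initiation genes 8 and 0 of 24, and small nucleolar RNA host genes 5 and 0 of 11. The lysosomal proton pump had 0 and 0 of 16. Without knockout rich replicate 1 the counts over all genes were 2101 and 2383, and those of contractile, hypoxia and autophagy initiation genes 0 and 20, 12 and 1, and 14 and 0.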
